A study of Mus musculus with 39 samples.

Results

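Mice that had inhaled mainstream tobacco smoke (MTS) for 12 weeks and were then left unexposed for 6 weeks were compared with mice that had gone through the same handling without smoke. The comparison rests on 10 of the 39 arrays of the series, 5 titled 12 week smoke-6 week break and 5 titled 12 week smoke-break sham, and the arrays were taken by those titles alone. All were male C57B1/CBA mice whose label age was 8 to 10 weeks. The smoke-break mice received 2 cigarettes daily on 5 days per week for 12 weeks in all, a lead-up period included, the break sham mice were placed in the restrainers only, and both were killed 6 weeks after the final exposure. The label "time post exposure" reads 3 h on every array, these 10 included, so the length of the break is taken from the titles and the treatment text. Each array held lung RNA of 1 mouse in the red channel (Cy5) against a universal mouse reference RNA in the green channel (Cy3), all in the same dye orientation. A value is therefore a log2 ratio of lung to reference, and a difference between groups is a difference of such log2 ratios, called the residual below when it is smoke-break minus break sham. Whole lung tissue was measured, so a change in the number of cells of a type cannot be told apart from a change in RNA per cell.

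The exposure-day labels form a continuous sequence with a day per array. It was divided here into 5 stretches, called runs, each beginning at an array of 6 week smoke, and every run held exactly 1 smoke-break mouse and 1 break sham mouse. The boundaries are inferred from that order and are not stated in the labels, and whether they are the authors' own blocks is not known. Mice are named by their run. The arrays of both groups overlapped in brightness. The median Cy5 signal was 308.5 to 1083 in the smoke-break group and 286 to 852 in the break sham group. Of gene probes, 67.5% to 85.9% and 67.4% to 86.2% lay above the negative control spots. The median of that share was higher in the smoke-break group, 80.7% against 71.7%. As lung markers, Ager, a receptor made mainly by alveolar type I cells, had a log2 ratio of 2.82 to 3.59 and of 2.89 to 3.93, and the probes of Sftpc (surfactant protein C of alveolar type II cells) and Scgb1a1 (the secretory protein of club cells) were saturated on all 10 arrays. The array labelled 6 week sham replicate 2, which is not among the 10 and enters only the shared spread and the run effects, stood apart from its group with a Cyp1a1 log2 ratio of 6.46 against a group mean of 3.07. Arrays from smoke-break mice of runs 4 and 5 stood apart from all others in skeletal muscle genes. Some values, several muscle genes among them, are given with and without those arrays. Other values, given once, also moved without them, such as the Cyp1a1 residual, from -0.29 to 0.01.

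Inhaled smoke carries polycyclic aromatic hydrocarbons, which bind the aryl hydrocarbon receptor (AhR). The ligand-bound receptor pairs with Arnt and binds DNA at a core of the letters GCGTG, raising phase I enzymes such as Cyp1a1 and Cyp1b1 as well as its own repressor, Ahrr. Smoke oxidants also release the transcription factor Nrf2 from Keap1, and Nrf2 raises genes of glutathione synthesis, quinone reduction and thioredoxin recycling. In the lung both systems answer inhaled pollutants in epithelium and macrophages, while Il6, acting through Stat3 and its feedback inhibitor Socs3, belongs to the inflammatory arm. The question of the comparison is which of these responses, or any other gene, still differed once exposure had stopped.

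Start-proximal sequence is shown for 4 genes that rose under 12 weeks of smoke and whose level after the break is described below: 3 of the AhR pathway and Osgin1, a growth inhibitor induced by oxidative stress. Each stretch is 100 bases long, from 120 to 21 bases before the start of the RefSeq transcript, in the GRCm38.p6 assembly, 5′ to 3′ on the strand of the gene, with GCGTG, or CACGC where it lies on the other strand, in capitals.
Cyp1a1, chr9:57697493-57697592, + strand: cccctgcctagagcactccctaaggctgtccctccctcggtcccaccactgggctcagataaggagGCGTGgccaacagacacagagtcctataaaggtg
Cyp1b1, chr17:79715082-79715181, − strand: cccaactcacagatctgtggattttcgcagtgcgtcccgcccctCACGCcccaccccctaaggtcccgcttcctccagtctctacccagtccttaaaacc
Ahrr, chr13:74292352-74292451, − strand: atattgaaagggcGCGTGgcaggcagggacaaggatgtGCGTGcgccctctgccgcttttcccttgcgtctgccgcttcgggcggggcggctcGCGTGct
Osgin1, chr8:119437027-119437126, + strand: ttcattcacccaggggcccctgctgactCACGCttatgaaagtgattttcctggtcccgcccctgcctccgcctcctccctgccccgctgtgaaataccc
Ahrr held 3 copies of the core in this stretch and each of the other genes 1. Of the 62 named genes that rose under 12 weeks of smoke, 53 had a promoter entry in RefSeq (250 bases before to 50 after a start), with 68 entries in all, and GCGTG stood in 42 of these (61.8%) on either strand against 10639 of 32851 entries of all genes (32.4%). The letters TGACNNNGC, the core of the antioxidant response element bound by Nrf2, stood in 13 of 68 entries (19.1%) against 4071 of all (12.4%). An occurrence of either motif may overlap the other. A match is a description of the letters and not a binding site.

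None of 17560 probes differed between smoke-break and break sham lungs at an adjusted p under 0.05 in limma, which is 0% of probes, and the smallest adjusted p was 0.489. At an unadjusted p under 0.05 there were 1129 probes (6.43%), of which 639 (3.64%) were higher and 490 (2.79%) lower in the smoke-break mice. The 5 smoke-break values all lay above the 5 break sham values for 82 probes (0.467%) and all below for 51 probes (0.29%). With the run effects subtracted these counts were 154 and 102. No count to be met by chance was set beside either pair, so both are a description. Genes called non-overlapping below are to be read beside 0.467% (higher) and 0.29% (lower) of all probes. The typical size of a residual was small. Its median absolute value was 0.11 on the log2 scale, and 95% of probes stayed under 0.42. The 95% confidence interval of the residual lay within 1.5-fold in either direction for 12681 probes (72.2%) and within 2-fold for 16827 (95.8%). The limit was tighter for bright probes: of the 11269 probes above threshold on all 10 arrays, 84.3% had an interval within 1.5-fold, against 50.6% of the others.

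During exposure the same strain had a clear response. In 4 mice killed after 12 weeks of smoke against 5 sham mice of that time, 76 probes (0.433%) passed an adjusted p of 0.05, of which 66 rose and 10 fell. After the break the residual of the 66 raised probes had a median of 0.05 beside a median smoke change of 0.84, and 43 of them (65.2%) were above 0, beside 52.7% of all probes. The 10 lowered probes, with a median smoke change of -0.54, had a median residual of 0.09, and 1 of 10 was below 0. For all 76 probes the 95% confidence interval of the residual left out the size of the smoke change: its upper end lay below the smoke change for the 66 raised probes and its lower end above it for the 10 lowered ones. The smoke change was taken here as fixed, without its own spread, and the probes had been chosen by it. In the direct test of the difference, given below, 12 of the 76 passed an adjusted p of 0.05 and the rest did not. The median absolute residual of the 76 was 0.116, beside 0.110 over all probes, and 3 had an unadjusted p under 0.05.

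**Figure D1:**
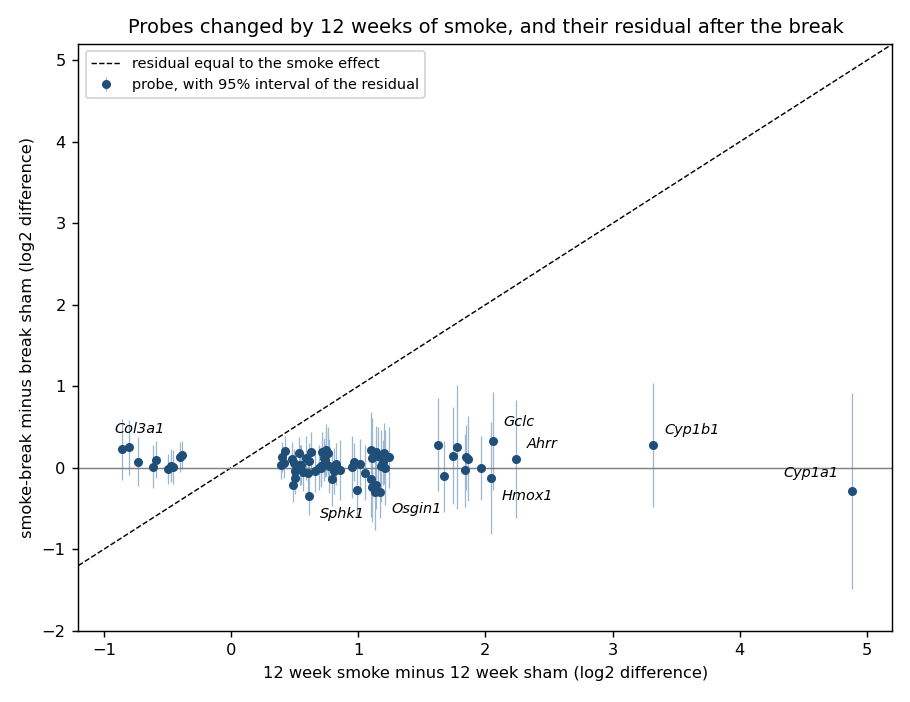
Each point is 1 of the 76 probes called for the 12 week smoke effect, with that effect (log2, 12 week smoke minus 12 week sham) on the x axis and the residual after the break (log2, 12 week smoke-6 week break minus 12 week smoke-break sham) on the y axis. Bars are 95% confidence intervals of the residual and the dashed line marks equal values. The residuals lie around 0, none reaching an absolute value above 0.35, while the smoke effect runs up to 4.88 for Cyp1a1.

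The difference between the smoke change and the residual was tested directly. It passed an adjusted p of 0.05 for 12 probes (0.0683%), all raised by smoke: the AhR genes Cyp1a1, Cyp1b1 and Aldh3a1, the Nrf2 genes Nqo1, Srxn1, Txnrd1, Cbr3 and Osgin1, the NF-kB cofactor Bcl3, the growth arrest gene Gadd45g, the phosphatase Ptp4a1 and Sphk1, a kinase that makes sphingosine 1-phosphate. Their drop from the smoke change to the residual ranged from 0.89 for Ptp4a1 to 5.17 for Cyp1a1 on the log2 scale. Ptp4a1 passed at the dimmest of its 3 probes only. The brightest probe had a drop of 0.65 and the remaining probe 0.68, each with an adjusted p of 0.099. Srxn1 passed at the brighter of its probes. The dimmer one had a smoke change of 0.49 (adjusted p = 0.286 in limma) and a residual of -0.02. With the log ratios scaled to a common spread between arrays none of the 12 passed, with adjusted p of 0.084 to 0.64, although the differences were 0.93 to 5.68. Without the array labelled 6 week sham replicate 2 the count over all probes was 27.

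Cyp1a1, the phase I enzyme that oxidises polycyclic hydrocarbons, had the highest rise of the 76 probes under smoke, 4.88, and its level after the break lay in the break sham range or below it. Its log2 ratio was 1.86, 0.85, 0.45, 1.30 and 0.52 in the smoke-break mice of runs 1 to 5. The break sham mice had 1.95, 1.15, 0.85, 0.86 and 1.60. The groups overlapped, with 3 smoke-break mice just under or below the lowest break sham mouse, and the smoke-break mouse was higher in 1 of 5 runs. The residual was -0.29 ± 0.59 (SE, n = 5 and 5), with a 95% confidence interval of -1.49 to 0.92.

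Cyp1b1, which activates many of the same hydrocarbons, had log2 ratios of -1.18, -1.13, -1.54, -0.28 and -1.16 after smoke and break. In break sham lungs they were -0.68, -1.62, -1.28, -1.68 and -1.42. The smoke-break mouse of run 4 was the highest of the 10 and the other values were mixed. Its residual of 0.28 (interval -0.49 to 1.04) stood beside a smoke change of 3.32. For Ahrr, the AhR repressor, the values were -0.48, -0.14, -0.02, 0.01 and -0.49 in smoke-break and -0.36, -0.42, -0.63, -0.18 and -0.05 in break sham mice. That left a residual of 0.11 (interval -0.62 to 0.83) beside a rise of 2.24 under smoke. Of the 9 measured genes of the AhR list 0 had an unadjusted p under 0.05 for the residual, beside 6.43% of all probes. By 12 weeks of smoke 6 were raised at an adjusted p of 0.05. The list's median residual was 0.03 beside 0.01 over all genes. Tiparp, the AhR-induced ADP-ribosyltransferase, had the narrowest interval of the fixed AhR genes, -0.33 to 0.09.

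Among Nrf2 targets, Nqo1, the quinone reductase, gave the closest match between groups. Smoke-break mice had log2 ratios of -1.74, -1.47, -1.48, -1.74 and -1.39 and break sham mice -1.37, -1.67, -1.68, -1.65 and -1.44. The 2 ranges nearly coincided, and the residual of -0.00 had an interval of -0.40 to 0.39 against a smoke change of 1.96. Hmox1, the haem-degrading oxygenase, had a residual of -0.13 (interval -0.81 to 0.56) after a smoke change of 2.05. Srxn1, which repairs peroxiredoxins, had -0.10 (-0.54 to 0.33) at its brighter probe, and Txnrd1, the thioredoxin reductase, 0.07 (-0.21 to 0.34). The glutathione synthesis genes Gclc and Gclm had residuals of 0.33 (-0.27 to 0.93) and -0.06 (-0.39 to 0.28), after smoke changes of 2.06 and 1.06. The larger Gclc value came with a break sham mouse of run 4 at 0.32, while the other 9 mice were between 1.42 and 2.09.

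Over the 42 measured Nrf2 genes the median residual was 0.04, and 4 (against 6.43% of all probes, 3.64% higher) had an unadjusted p under 0.05, all higher in smoke-break lungs: Gpx2 by 0.65, Cat (catalase) by 0.42, Me1 by 0.31 and Txn1 by 0.29. None of these 4 was among the 12 genes of the list that 12 weeks of smoke raised past the adjusted threshold. Gpx2, a glutathione peroxidase of epithelium, read 3.30, 2.42, 3.67, 3.48 and 3.45 in smoke-break mice. In break sham mice it read 2.15, 2.10, 3.48, 2.46 and 2.88. It was higher in the smoke-break mouse of all 5 runs, though the mice of runs 1, 2 and 5 lay inside the sham range. For Me1, malic enzyme, a source of NADPH, the groups did not overlap at the brighter probe, while the dimmer probe had a residual of -0.01. In the 6 week arm the same 4 genes had differences of -0.23, -0.24, 0.01 and 0.02.

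**Figure D2:**
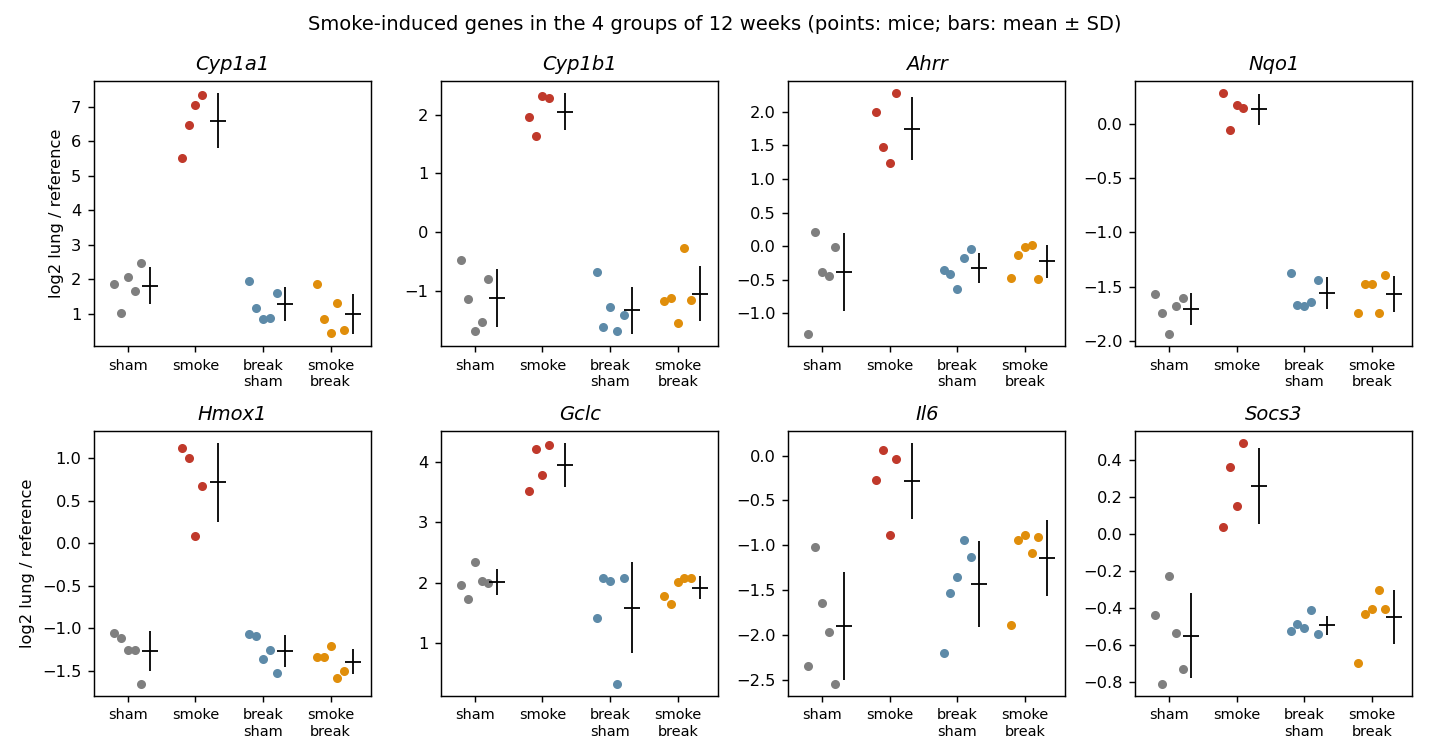
Log2 ratio of lung to reference for 8 smoke-raised genes in the 12 week arm, 1 point per mouse with the group mean and SD (12 week sham n = 5, 12 week smoke n = 4, break sham and smoke-break n = 5 each). The smoke mice stand above all other groups for Cyp1a1, Cyp1b1, Ahrr, Nqo1, Hmox1, Gclc and Socs3, and the smoke-break mice overlap the break sham mice in all 8 panels.

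Il6, a cytokine of the acute inflammatory response, had log2 ratios of -1.89, -0.95, -0.89, -1.09 and -0.91 in smoke-break and -2.19, -1.53, -1.35, -0.94 and -1.13 in break sham mice. Its smoke-break value was higher in 4 of 5 runs but the ranges overlapped, and the residual of 0.29 (interval -0.29 to 0.86) compares with a smoke change of 1.63. Socs3, the feedback inhibitor of Stat3, had a residual of 0.05 (-0.21 to 0.30) and Bcl3 -0.21 (-0.51 to 0.09). For Ptgs2, the inducible cyclooxygenase, the residual was 0.11 (-0.41 to 0.63) beside a smoke change of 1.86. Of 31 measured genes of the IL-6 and Stat3 list 1 had an unadjusted p under 0.05, beside 6.43% of all probes: Myc, higher by 0.46. That value rested on the smoke-break mouse of run 1, at -1.35, since the other 9 lay between -3.36 and -2.81, and without that mouse the residual was 0.16. Without the mice of runs 4 and 5 it was 0.72.

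Of 26 inflammatory cytokines and mediators 1 passed the unadjusted threshold, Il33, an alarmin of structural lung cells. Each list count in this paragraph stands beside 6.43% of all probes. Il33 was 1.33, 1.53, 1.53, 1.68 and 1.77 in smoke-break and 1.43, 1.27, 1.31, 1.16 and 1.27 in break sham mice. The smoke-break mouse was higher in 4 of 5 runs, by 0.28 ± 0.10 on average (adjusted p = 0.672). Without the smoke-break mice of runs 4 and 5 the Il33 residual was 0.20 and did not pass the unadjusted threshold. Among 33 chemokines and receptors Cxcl1, a neutrophil attractant, was higher by 0.51 and Ccr3, a receptor of eosinophils, lower by 0.39 at an unadjusted p under 0.05. Without those smoke-break mice the residuals were 0.39 and -0.31, and neither passed the unadjusted threshold. None of the 12 neutrophil markers and 1 of 37 macrophage and lysosome genes passed it. The latter was Lpl, lipoprotein lipase, with 0.53. Its log2 ratio was 1.36 and 1.21 in the smoke-break mice of runs 4 and 5 and 0.40 to 0.55 in the other 3, and without those 2 arrays the residual was 0.23. Without the break sham mouse of run 4 it was 0.35. Gpnmb, a glycoprotein of lipid-laden macrophages that smoke had raised by 1.21, did not overlap between groups: -2.53 to -2.48 in smoke-break mice and -2.90 to -2.58 in break sham mice. Its residual was 0.18 with an interval of -0.20 to 0.55, and the groups overlapped once the run effects were subtracted. Chil3 and Ctsk, 2 further macrophage genes, had residuals of 0.06 and 0.40 with intervals that include 0. Mmp12, macrophage elastase, did not pass the filter on dim probes and has no value here.

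Genes that smoke lowered included Col3a1 and Pdgfrb. Col3a1, a fibrillar collagen, read -0.78 to -0.67 in smoke-break and -1.09 to -0.74 in break sham mice, a residual of 0.25 (interval -0.09 to 0.59) on the opposite side of 0 from the smoke change of -0.80. Pdgfrb, the receptor of pericytes and fibroblasts, had 0.02 (-0.24 to 0.27) after a smoke change of -0.61. Of 40 collagen, matrix and fibroblast genes none had an unadjusted p under 0.05, beside 6.43% of all probes, and for all 40 the interval lay within 2-fold. Of 26 proteases and antiproteases none passed it either, with 25 intervals within 2-fold.

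Among the 76 smoke-called probes the largest residual belonged to Sphk1, on the opposite side of 0 from its smoke change of 0.61. Its log2 ratio was 0.46, 0.80, 0.55, 0.53 and 0.57 in the smoke-break mice of runs 1 to 5. The break sham mice had 1.03, 0.87, 0.92, 1.01 and 0.83. No smoke-break mouse reached the lowest break sham mouse, and the residual was -0.35 ± 0.11 (interval -0.58 to -0.12, adjusted p = 0.636). In the 6 week arm, with mice of its own in both groups, the same difference was -0.32 (adjusted p = 0.999). Osgin1 had 0.22, 0.24, 0.31, 0.15 and 0.21 in smoke-break and 0.59, 0.38, 0.51, 0.61 and 0.52 in break sham mice. These groups did not overlap either, and the residual was -0.29 (interval -0.62 to 0.03, adjusted p = 0.789), with -0.29 in the 6 week arm. Once the run effects were subtracted, the groups overlapped for both Sphk1 and Osgin1. Pooling both durations, a contrast chosen after these values were seen, gave -0.33 for Sphk1 (adjusted p = 0.32) and -0.29 for Osgin1 (adjusted p = 0.72), and 0% of probes passed. Neither gene was called, and without the smoke-break mice of runs 4 and 5 the residuals were -0.28 and -0.19.

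**Figure D3:**
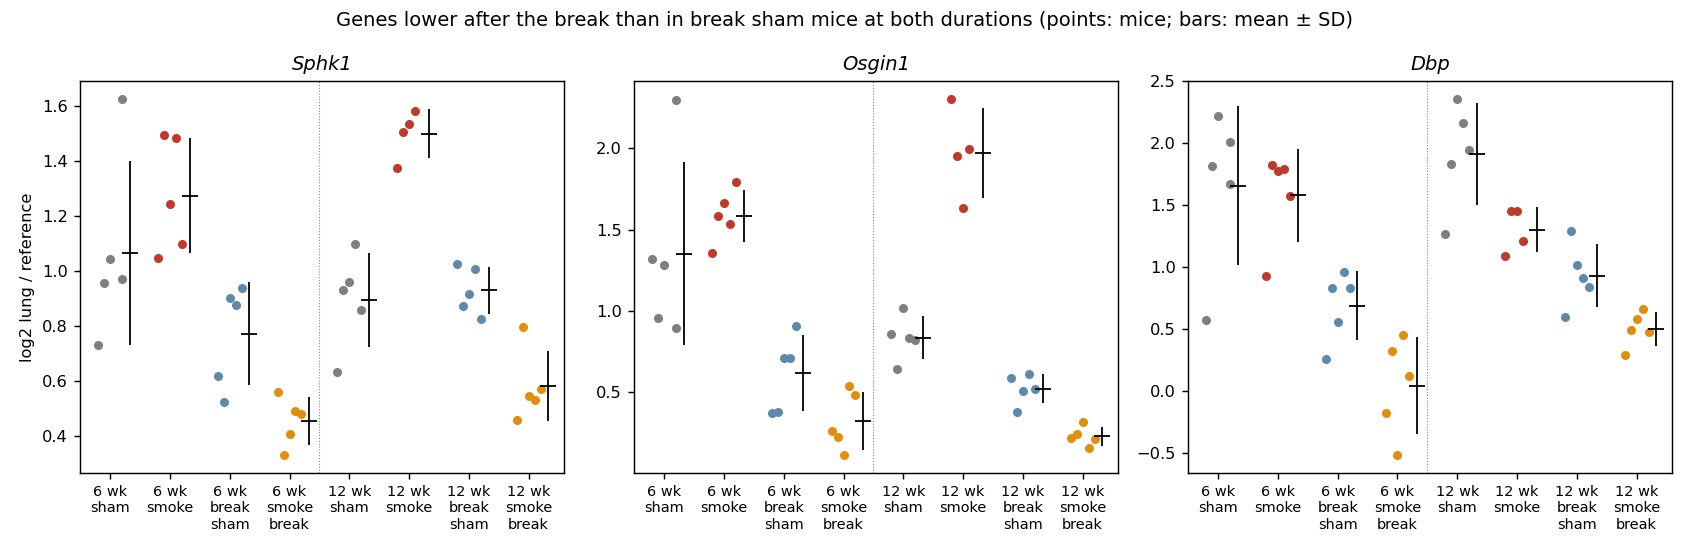
Log2 ratio of lung to reference for Sphk1, Osgin1 and the clock output gene Dbp in all 8 groups of the series, 1 point per mouse with the group mean and SD. For Sphk1 and Osgin1 every 12 week smoke-6 week break mouse lies below every 12 week break sham mouse, by a residual of -0.35 and -0.29. The values shown keep the run effects, and after their subtraction the groups overlap.

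Dbp, a transcription factor whose level follows the time of day, was lower after the break in both arms. It was also lower under 12 weeks of smoke, with a smoke change of -0.60 (adjusted p = 0.164 in limma). The smoke-break mice had 0.29, 0.50, 0.58, 0.66 and 0.47, and break sham mice 0.60, 1.29, 1.02, 0.91 and 0.84. The smoke-break mouse was lower in all 5 runs, with overlap of the groups at 0.60 to 0.66, and the residual was -0.43 (adjusted p = 0.679) beside -0.65 (adjusted p = 0.794) in the 6 week arm. Of 17 clock genes 3 passed an unadjusted p of 0.05, beside 6.43% of all probes, all lower: Dbp, Hlf by 0.31 and Bhlhe40 by 0.29. Without the smoke-break mice of runs 4 and 5 the list had 1 such gene.

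Genes of the unfolded protein response, by which cells answer misfolded proteins in the endoplasmic reticulum, lay low by small amounts. Of 25 measured, 23 had a residual below 0, beside 46.9% of all genes, with a median of -0.08. At an unadjusted p under 0.05 there were 2, beside 6.43% of all probes. These were Ppp1r15a, the phosphatase subunit that restores translation (-0.50), and the chaperone Canx (-0.25). The mean log2 ratio over the list was -0.59 to -0.50 in smoke-break and -0.45 to -0.34 in break sham mice, without overlap. In the 6 week arm 20 of 25 were below 0. With the authors' log2 ratios 23 of 25 were below 0, but 16 with median centring and 17 with scaling between arrays.

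Immediate early genes, transcription factors induced within minutes by stress and handling, had 18 of 25 members below 0, beside 46.9% of all genes. The median residual was -0.17. Fos read 0.18, 0.98, 1.41, 1.11 and 1.20 in smoke-break and 0.92, 2.13, 1.60, 1.49 and 1.65 in break sham mice. It was lower in the smoke-break mouse of all 5 runs, by 0.58 on average (interval -1.24 to 0.07), although run 1 lay low in both groups. Egr1 and Ier2 followed the same order in all 5 runs with -0.54 each. Ccn1, a secreted matricellular protein, did not overlap between groups, with 0.08 to 0.60 in smoke-break and 0.66 to 1.25 in break sham mice. The genes of the list at an unadjusted p under 0.05, beside 6.43% of all probes, were Ccn1 and Ier3, a survival factor, both lower, and Myc, higher. In the 6 week arm 8 of 25 members were below 0, and the difference between the arms passed the adjusted threshold for none of all probes. Without the smoke-break mice of runs 4 and 5 the list's median was -0.30, with 7 genes lower at an unadjusted p under 0.05 in place of 2. In that fit 6.06% of all probes passed in either direction.

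Mt2, a metal-binding metallothionein that stress and glucocorticoids raise, was lower in the smoke-break mouse of every run, by 0.66 ± 0.24 (adjusted p = 0.672). Its values were -1.74, -2.44, -2.26, -1.87 and -1.85 in smoke-break and -0.56, -2.21, -2.10, -0.95 and -1.03 in break sham mice. The sham mice of runs 2 and 3 lay among the smoke-break values and the other 3 above them, and without the run 5 sham mouse the residual was -0.41. Stip1, a co-chaperone of Hsp70 and Hsp90, did not overlap between groups, at -1.54 to -1.41 against -1.32 to -0.66, with a residual of -0.46 ± 0.13 (adjusted p = 0.489). Over the 26 heat shock and cold-inducible genes 17 were below 0, beside 46.9% of all genes. At the unadjusted threshold 2 passed, beside 6.43% of all probes: Stip1 and, higher by 0.62, Hspa2 (0.31 without the break sham mouse of run 5). The 25 glucocorticoid-responsive genes had a median of -0.12 and 2 passing genes, Mt2 and, higher by 0.39, Angptl4. Without the smoke-break mice of runs 4 and 5 this list had 1 higher and 4 lower, beside 6.06% of all probes in either direction, with a median of -0.27.

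The highest residuals belonged to genes of skeletal muscle, and they came from 2 mice. Myh2, a myosin heavy chain of fast muscle fibres, had a log2 ratio of 5.98 in the smoke-break mouse of run 4 and 5.38 in that of run 5. In the other 8 mice it was -0.40 to 0.41, and the next highest of all 39 arrays was 2.17. Tnnc2, fast troponin C, read 4.23 and 3.60 in these mice and -1.33 to -0.81 in the other 8. Mylpf, a fast myosin light chain, read 2.73 and 2.81 against -1.95 to -0.44, and Pvalb, the calcium buffer parvalbumin, 3.06 and 2.45 against -0.35 to 0.53. The mean log2 ratio over the 21 measured muscle and heart markers was 3.15 and 2.62 there, and 1.28 to 1.39 in the other smoke-break and 1.33 to 1.76 in the break sham mice. Genes known from heart were mixed. Myl2, a ventricular myosin light chain also made in slow muscle, read 2.97 and 2.11 against -1.25 to 0.48, while Myh6, the atrial myosin heavy chain, read 4.00 and 2.94 against 2.17 to 3.63 and Myl7, an atrial light chain, 5.41 and 5.33 against 3.46 to 6.18. Myh1, another fast skeletal myosin, was 1.15 and -0.15 against -0.90 to 0.37.

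Of the 28 probes with a residual above 1 in absolute value, all were higher in the smoke-break mice. Without the arrays of these 2 mice the residual of Tnnc2 was 0.07 in place of 2.10, that of Mylpf 0.00 in place of 1.72, that of Tnni2, fast troponin I, 0.20 in place of 1.52, and that of Pvalb 0.32 in place of 1.35. The median of the muscle and heart list was -0.12 in place of 0.18. The counts over all probes without them were 0 at the adjusted and 1064 at the unadjusted threshold, of which 546 were higher, 51.3% in place of 56.6%. The kidney androgen-regulated gene Kap was also high in these mice, at 3.01 and 4.19 against -0.68 to 0.34 in the other 8. The liver genes Ambp and Ces3b were not highest there but in the smoke-break mouse of run 2, at 4.71 and 3.34. The part of other tissue in the samples was not tested further.

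**Figure D4:**
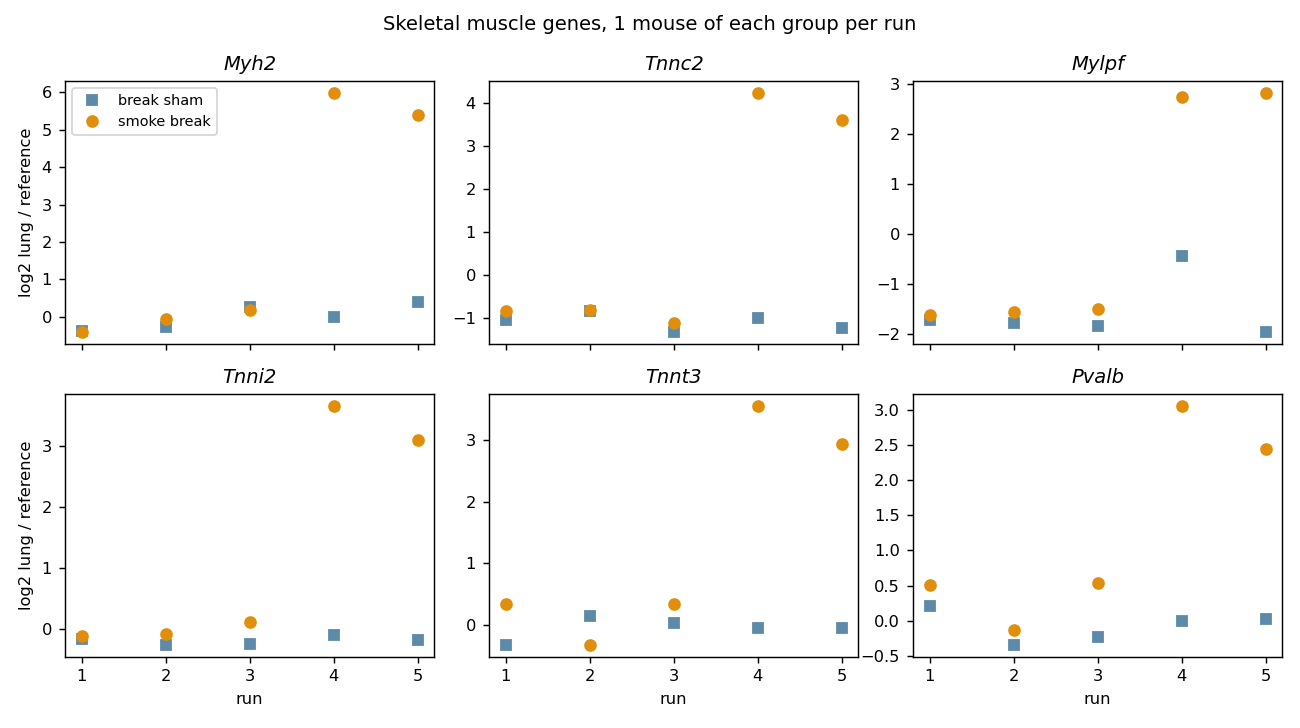
Log2 ratio of lung to reference for 6 skeletal muscle genes in each of the 10 mice, by run (x axis, runs 1 to 5) and group. The smoke-break mice of runs 4 and 5 stand above the other 8 in every panel, as for Myh2 with 5.98 and 5.38.

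Genes outside these lists were named by their size or their p. Among genes with a steady sign in all 5 runs and an unadjusted p under 0.05, the 15 highest and 15 lowest residuals were largely dim: 4 of the 15 and 3 of the 15 lay above threshold on all 10 arrays. After the muscle genes, the high end held Rdh7 (0.93) and Ces3b (1.16), enzymes better known from liver, the anion exchanger Slc26a4 (0.93), which lies in airway epithelium, and Glycam1 (0.88), a mucin of lymph node venules that lay above threshold on 2 arrays of each group. Without the smoke-break mouse of run 2 Ces3b and Rdh7 had 0.59 each, and without that of run 1 Glycam1 had 0.54. Slc26a4 was 1.36, 2.16, 2.71, 2.94 and 2.38 in smoke-break and 1.14, 1.73, 2.28, 0.57 and 1.18 in break sham mice. The smoke-break mouse was higher in each run and the ranges overlapped. The low end held Plxnc1 (-0.80), a semaphorin receptor of leukocytes, and Bank1 (-0.67), a B cell scaffold protein. Bank1 was 0.26 to 0.91 in smoke-break mice and 1.78, 1.62, 1.15, 1.51 and 0.31 in break sham mice, of which the run 5 mouse alone lay in the smoke-break range. Another B lineage gene had the opposite sign, Tnfrsf17, the plasma cell receptor BCMA, with a residual of 0.48 and 0.35 in the 6 week arm.

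The smallest unadjusted p, 4.99e-05, belonged to Psme3ip1, a partner of a proteasome activator, with a residual of -0.33 ± 0.07 (adjusted p = 0.489). Its log2 ratio was -0.06, -0.16, -0.23, -0.45 and 0.17 in smoke-break and 0.41, 0.19, 0.11, -0.07 and 0.29 in break sham mice, lower in every run with overlapping ranges. Small and steady differences also marked 2 subunits of mitochondrial complex I, Ndufa1 (0.32) and Ndufc2 (0.36), and Cfap20 (0.37), a protein of cilia, whose groups did not overlap. For Pcf11, a factor of transcript 3' end formation, the brighter probe had a residual of 0.45 and the other 0.11. In the 6 week arm these 5 genes had differences of -0.09, 0.07, -0.00, 0.10 and 0.06.

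Of the lists of lung cell types, the alveolar type I (12 genes), alveolar type II (20), ciliated (18) and dendritic and MHC class II (22) lists had none at an unadjusted p under 0.05. The adipocyte list (9), of cells from outside the lung, had none either. The club and secretory list (20) had 1 lower. The B cell (18) and T and NK (21) lists each had 1 higher and 1 lower. Of the 21 endothelial genes 15 were below 0, with a median of -0.04, and 1 passed, Vwf, the von Willebrand factor of endothelium and platelets, which was higher by 0.54, or by 0.23 without the smoke-break mouse of run 1. Of 9 erythroid and blood markers 1 passed, Pf4, a platelet chemokine (0.38). Pecam1, an endothelial adhesion molecule, had a residual of 0.55 (interval -0.02 to 1.11), with the break sham mouse of run 2 at 0.33 and the others between 1.96 and 2.86. Among 34 cell cycle genes 3 passed, with Bub1 at 1.05, Nusap1 at 0.40 and Cdc20 at -0.44. Bub1 lay above threshold on 1 smoke-break and 3 break sham arrays, and without the smoke-break mouse of run 1, at 0.44 where the others were -4.07 to -2.99, its residual was 0.28, while without those of runs 4 and 5 it was 1.80. Of 28 genes of p53, DNA damage and senescence 2 passed, Plk3 (-0.37) and Sesn1 (-0.18), both lower, and of 40 interferon-responsive genes Mx1 (0.37) and Oas1b (0.32), both higher. These shares are of the order of the 6.43% of all probes. Plk3 was -0.19 without the break sham mouse of run 5, -0.24 without the smoke-break mouse of run 1 and -0.56 without those of runs 4 and 5, and Oas1b was 0.14 without the smoke-break mouse of run 1.

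**Figure D5:**
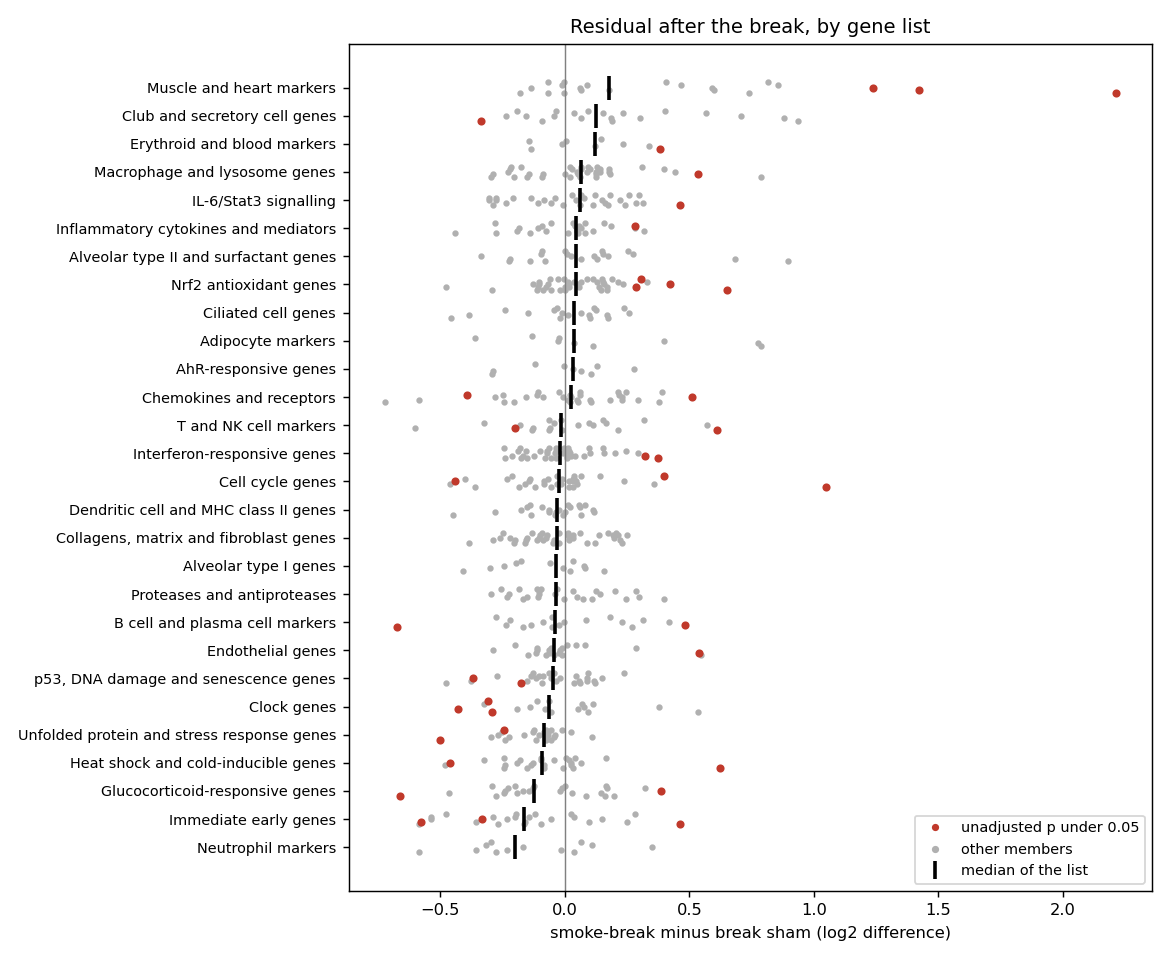
Residual (log2, 12 week smoke-6 week break minus 12 week smoke-break sham) of every measured gene of the 28 lists, 1 point per gene, with the median of each list. Medians run from -0.20 for neutrophil markers to 0.18 for muscle and heart markers, and the points far to the right in the latter are skeletal muscle genes.

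Residuals of the 12 week arm were set beside those of the 6 week arm, in which smoke-break and break sham mice of their own were compared after 6 weeks of exposure. The difference between the 2 residuals passed an adjusted p of 0.05 for 0 of 17560 probes in limma (0%), with a smallest adjusted p of 0.998 and 802 probes at an unadjusted p under 0.05. Of all probes 52.9% had the same sign in both arms, and of the 1129 probes at an unadjusted p under 0.05 in the 12 week arm 656 (58.1%) did. Across probes, which are not independent replicates and share the run effects of the fit, the correlation of both residuals was r = -0.03. At the unadjusted threshold 758 probes passed in the 6 week arm.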

How the data were processed

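Lung RNA was hybridised on 39 two-colour Agilent oligonucleotide arrays, 1 mouse each. The deposited scanner files hold spot intensities read by the authors with ImaGene, and a deposited table holds the log2 ratios that the authors normalised by global LOWESS; the latter served as an alternative (r = 0.983 to 0.992 with the values used here, over the 10 arrays). Intensity medians were background-corrected by normexp (offset 50) and loess-normalised within arrays with control spots at weight 0, and spots of a probe were averaged. Of 22575 spots 1257 were controls; of 20868 gene probes 17560 were kept, those whose Cy5 signal exceeded the trimmed mean plus 3 SD of 162 negative control spots in at least 4 arrays of a group. The platform annotation gave 1 symbol for 18235 probes, several for 30 and none for 2603. Where probes shared a symbol, the brightest stands for the gene.

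All 8 groups were fitted in 1 limma model (limma 3.58.1, R 4.3.3) with the 5 runs as a fixed block, after the blocking by hybridisation and exposure day that the authors describe, and p-values were adjusted by Benjamini-Hochberg over 17560 probes. Tests are two-sided. The labels give 1 exposure day per array; the sequence was divided into runs, each beginning at a 6 week smoke array, so the pairing of the mice is inferred and may not be the authors' block. Deviations of same-run mice correlated at r = 0.149, 0.053, 0.069, -0.059 and 0.139. The number of arrays limits the precision, and where nothing ties mice to separate litters the p-values measure the spread between these mice. Scripts were tested on simulated data.

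Named genes were the 15 highest and 15 lowest residuals with an unadjusted p under 0.05 and 1 sign in all 5 runs, the 10 with the smallest p, up to 4 per list with the largest residual, a fixed set of smoke-response and lung genes, the 10 smoke-called probes with the largest residual, and any called probe; the other list members at an unadjusted p under 0.05, the genes whose smoke change and residual differed, Myh6, Kap and Ambp were added after their values were seen. The members and the 28 lists (735 genes) were chosen with earlier results of these data known. Alternatives covered background correction, spot summary, normalisation, probe filter, block, array weights and marked spots. Each of the 10 arrays was also left out in turn, and 6 week sham replicate 2 once.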

Additional observations from a re-analysis of the deposited data

Results flagged for a closer look

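For 12 probes, 1 per gene, the 12 week smoke change and the residual after the break differed at an adjusted p under 0.05 in limma. The Ptp4a1 probe is the dimmest of 3, and the others of that gene did not pass. Srxn1 also has a dimmer probe that did not pass, with a smoke change of 0.49 (adjusted p = 0.286). The difference, smoke change minus residual on the log2 scale, was 5.17 for Cyp1a1, 3.04 for Cyp1b1, 1.97 for Nqo1, 1.87 for Cbr3, 1.78 for Srxn1, 1.72 for Aldh3a1, 1.47 for Osgin1, 1.35 for Bcl3, 1.26 for Gadd45g, 1.13 for Txnrd1, 0.96 for Sphk1 and 0.89 for Ptp4a1.

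Of 338 groups of 5 mice tested over the named genes, 43 (12.7%) held a mouse whose log2 ratio lay far from the other 4. The cut-off is set for about 1 in 20 by chance. Many of the named genes were chosen by their residual in these same mice, so that rate does not apply to them. The break sham mouse of run 1 accounts for 13 of the 43. It was high for Ces3b (0.99), Ddit3 (0.081), Olfr497 (1.56), Spx (1.43) and Sapcd1 (1.69). It was low for Dram1 (0.19, the others 3.57 to 4.01), Pf4 (-1.40), Ndufa1 (-0.054), Cdkn1c (1.78), Scgb1a1 (0.54), Emp2 (2.45), Ier2 (0.055) and Kdm8 (-0.12). The smoke-break mouse of run 1 accounts for 10: it was high for Bub1 (0.44, the others -4.07 to -2.99), Myc (-1.35), Timp1 (0.44), Timp4 (0.58) and Cxcr2 (2.19), and low for Il6 (-1.89), Hbb-b2 (1.48), Scgb1a1 (0.51), Ptgs2 (-1.63) and Mgp (2.66). The probe of Scgb1a1 and that of Hbb-b2 were saturated on all 10 arrays and that of Mgp on 8. In run 1 the mice of both groups had the lowest value of their group for Ptgs2, Scgb1a1 and Ier2.

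The break sham mouse of run 4 was far from its group for 6 genes, with Sftpa1, a surfactant protein, at -0.20 while the other 4 were 4.44 to 4.93. It was also low for Per2 (-0.46) and Dynlrb2 (1.96), and high for Mylpf (-0.44), Lox (-0.96) and Pdzd2 (2.35). Pdzd2 was high in the smoke-break mouse of the same run as well (2.06). The break sham mouse of run 2 was high for Ucp1, a gene of brown fat (2.72, the others -0.16 to 0.46), and Gzma (4.33), and low for Npas2 (-1.35) and Hspa1a (1.34). That of run 3 was high for the airway mucin Muc5b (3.33), Blk (1.19) and Cbr3 (1.39), and that of run 5 was high for Cdc25c (-1.08). Among smoke-break mice, that of run 2 was low for Muc5b (1.04, the others 2.65 to 3.28) and Sapcd1 (-0.57), that of run 3 was low for Cat (1.53) and Nvl (-0.71), and that of run 5 was low for Plcb1 (0.60).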

How the results depend on the processing

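No probe was called for the residual under any setting except with spots marked by the scanner software left out, which called 1 (A_51_P515158, unnamed, left with 1 array per group); the smallest adjusted p of the other settings was 0.077, in the leave-one-out fits that gave 0.077 to 0.724. Probes at an unadjusted p under 0.05, 1129 with all arrays, were 973 to 1428 with each of the 10 arrays left out in turn. Here and below, only these 10 were left out in this way. The count was 708 with the filter at all 10 arrays and 739 with marked spots left out. Those settings test fewer probes (6.28% and 6.51% of those tested, against 6.43%). Of those passing, 70.1% were higher with median centring and 50% with the authors' log2 ratios, against 56.6%. Non-overlapping probes, 133 in all, were 83 with scaling between arrays, 83 with the all-array filter, 54 with marked spots left out, 218 to 330 without 1 array and 647 without the smoke-break mice of runs 4 and 5, where fewer mice make separation easier. Without the replicate block (the runs that pair the mice) 834 probes passed the unadjusted threshold, and the 10 arrays alone gave 807 with the pairing and 709 without it. The 76 smoke-called probes became 46 without the block, 20 with scaling, 203 with array weights and 127 with marked spots left out. Without 6 week sham replicate 2 they were 91. No array of 12 week smoke or 12 week sham was left out, so the 71 to 79 without 1 array do not test these calls. The 12 probes whose smoke change and residual differed became 7 with spot means, 0 with scaling, 33 with array weights, 23 with marked spots left out, 27 without 6 week sham replicate 2, 8 without the block and 10 to 17 without 1 array; no named difference changed sign. For both durations pooled the count was 0, with 1 under array weights (4930463O16Rik) and 0 to 1 without 1 array (1, Npr3, without break sham replicate 4). The median residual of the smoke-called probes, 0.05, was 0.12 with median centring and 0.13 with scaling. Of 4260 values of named genes 72 moved beyond the replicate SD and 87 in 45 genes changed sign, none of them called. Sphk1 stayed between -0.59 and -0.24, under 0.05 unadjusted in 24 of 26 settings. The cause of these shifts was not tested. Brightness bears on precision: 50.6% of the probes below threshold on some array had an interval within 1.5-fold, against 84.3% of the rest.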
